A study of Mus musculus with 22 samples.

Results

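The miR-15, miR-16 and miR-195 family consists of short RNAs that share the same seed, the stretch near the 5′ end through which a miRNA pairs with its target mRNAs. The probes mmu-miR-15a, mmu-miR-15b, mmu-miR-16 and mmu-miR-195 were taken by name, without their star strands, and made up 4 of the 566 mouse miRNA probes of the NanoString nCounter assay. In this assay a coloured barcode is counted for each miRNA molecule bound by its probe. The 4 were followed over 22 mouse samples.

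CT was normal fallopian tube from uninduced mice carrying floxed alleles, among them Brca1 or Brca2 (n = 5). FT was fallopian tube after doxycycline (n = 5). Doxycycline switched on Cre under the Pax8 promoter, which is active in the secretory cells of the tube, and recombined the floxed alleles there. FT2 was Brca1 -/-, FT4 was Brca2 -/- and FT1, FT3 and FT5 were Brca2 -/+. M was metastatic tumor tissue from induced mice (n = 5), labelled as peritoneal in M1 to M4 and as an ovarian tumor in M6. M1 and M3 were Brca2 -/-, M4 was Brca2 -/+, and M2 and M6 were Brca1 -/+. CS was plasma of control mice (n = 3) and TS was plasma of induced mice (n = 4). The CS mice were those of CT2 to CT4, and TS1 to TS4 shared their mice with FT2 to FT5. The source field of the labels calls TS serum. Ages of the mice are not given in the sources used here. The paper reports FT and metastatic tumors matched by mouse, without naming the samples. By the full genotypes it lists, FT1 and M4 are the only FT and M samples used here that could share a mouse. The p-values treat them as separate samples. The paper also took 3 other metastatic tumors from an earlier publication, without naming them. Their source cannot be told apart from the difference between M and the tubes.

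The family is known as a brake on cell division and survival. Its members repress cyclins and other cell cycle regulators, and miR-15a and miR-16 repress Bcl2. The locus that holds miR-15a and one copy of miR-16 is deleted in many chronic lymphocytic leukemias, and miR-16 is abundant in red blood cells and a frequent reference in plasma studies.

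The mature sequences show why these 4 probes are read as a family and how little separates some of them. They were taken from RefSeq (GRCm38.p6), 5′ to 3′, with the seed (bases 2 to 8) in capitals.
miR-15a: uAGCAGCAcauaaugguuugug
miR-15b: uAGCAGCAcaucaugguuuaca
miR-16: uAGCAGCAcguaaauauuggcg
miR-195: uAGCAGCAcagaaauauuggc

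All 4 carry the seed AGCAGCA, which 10 of the 1679 mature mouse miRNAs in the RefSeq table hold (0.596%). Over the whole mature sequence, seed included, they fall into 2 pairs. miR-15a and miR-15b have the same base at 18 of 22 positions, and miR-16 and miR-195 at 19 of 21, while the other pairs match at 14 to 16 positions. The chance that a probe also counted its closest relative was not tested.

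The genes lie close together in pairs of another kind. Mir15a (chr14:61632075-61632096, minus strand) and Mir16-1 (chr14:61631936-61631957, minus strand) lie within the gene Dleu2, with starts 139 bases apart. Mir15b (chr3:69009775-69009796, plus strand) and Mir16-2 (chr3:69009918-69009939, plus strand) lie within Smc4, with starts 143 bases apart. Both miR-16 genes give the same mature sequence, so a miR-16 count cannot be assigned to either locus. Mir195a (chr11:70235062-70235082, plus strand) lies 332 bases from Mir497, start to start, and the RefSeq table places no other gene over it.

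Total counts on miRNAs were 70164 to 598321 in tissue and 18350 to 269005 in plasma. FT2 stood apart, with a Pearson r of 0.564 to the mean CT profile against 0.830 or more in the other FT samples. miRNAs of epithelium (the miR-200 family and its relatives, 5 probes) summed to 9285 to 11038 normalized counts in CT and 242 to 42010 in M, and those of ciliated epithelium (the miR-34b, miR-34c and miR-449 probes) to 312 to 3767 in CT and 27.9 to 88.3 in M, with 4 of 5 lower in M by the test. The background of a sample was set as the mean plus 2 SD of its 8 negative controls, which was 18.3 to 67.7 counts. Levels are given as normalized counts, for which each sample was scaled by a geometric mean over abundant miRNAs (100 for tissue, 30 for plasma). Tissue and plasma were scaled apart and are not compared in level. Probes differ in efficiency, so levels of different members are compared only as ranks in the count order.

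miR-16 was the most counted member in all 22 samples, at rank 2 to 34 of 566 in tissue and 2 to 10 in plasma. miR-15a held ranks 21 to 60 in tissue and 14 to 100 in plasma. miR-15b ranged most widely among these 3, from rank 28 to 279 in tissue and 13 to 100 in plasma. miR-195 was low, at rank 76 to 430 over all samples. It was above background in 4 of 5 CT, 3 of 5 FT, 3 of 5 M, 0 of 3 CS and 1 of 4 TS samples, so its plasma level was not measurable in most samples.

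**Figure D1:**
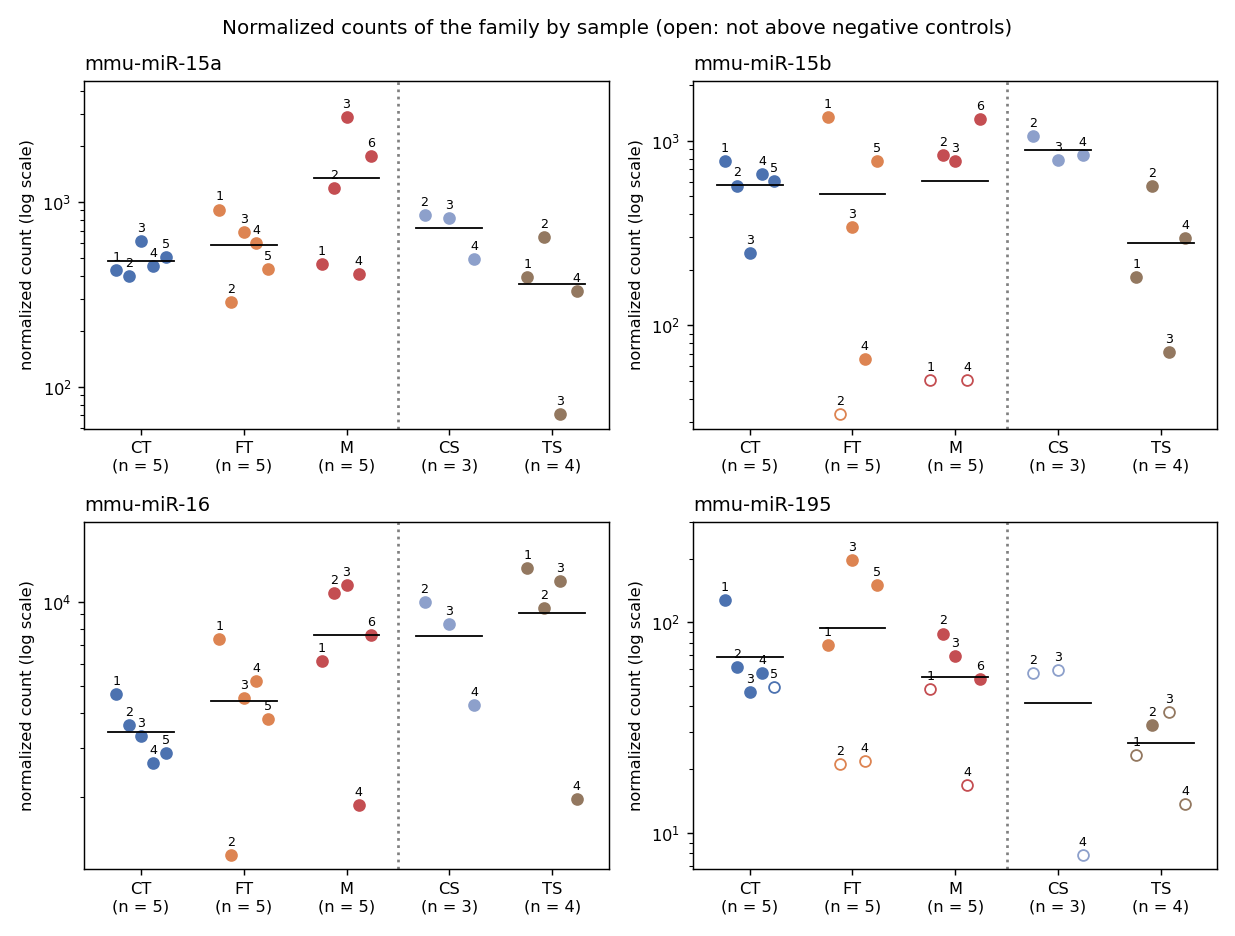
Normalized counts (log scale) of the 4 members in each sample of the 5 groups; numbers are sample numbers, black lines are group means and open symbols are counts not above the negative controls. miR-15b lay at 33.2 to 65.6 in FT2, FT4, M1 and M4 and at 247 or more in the other tissue samples, and its 4 TS values lay below its 3 CS values.

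No member passed the threshold in FT against CT. This comparison asked which miRNAs change in the tube after induction. Of all 566 miRNAs, 0.177% were called at an adjusted p of 0.05 (edgeR quasi-likelihood test, Benjamini-Hochberg), and 0 of the 4 members. At an unadjusted 0.05, 41 of the 566 passed, and DESeq2 called 3, none of them a member.

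miR-15a, the Dleu2 member, had normalized counts of 429, 398, 617, 450 and 501 in CT1 to CT5. In FT1 to FT5 it had 911, 289, 689, 596 and 433. FT1 and FT3 lay above every CT sample and FT2 below, so the groups overlapped. FT exceeded CT by a log2 fold change of 0.29 (95% interval -0.78 to 1.35, edgeR adjusted p = 0.849).

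miR-16, which both loci produce, had normalized counts of 4658, 3613, 3315, 2654 and 2867 in CT1 to CT5. In FT1 to FT5 it had 7326, 1241, 4534, 5199 and 3820. FT1 was highest and FT2 lowest of the 10. FT exceeded CT by 0.37 on the log2 scale (95% interval -0.84 to 1.59, edgeR adjusted p = 0.815).

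miR-15b, the Smc4 member, varied most. It had normalized counts of 779, 573, 247, 661 and 609 in CT1 to CT5, against 1348, 33.2, 341, 65.6 and 773 in FT1 to FT5. FT2 and FT4 lay below every CT sample, with FT2 (14 counts) under its background of 36.1 and FT4 (33 counts) just above its background of 30.4. Its log2 fold change was -0.16 (95% interval -1.63 to 1.31, edgeR adjusted p = 0.928), and its sign depended on the scaling, at 0.37 with TMM and 0.86 with scaling to the positive controls.

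miR-195, made from the same locus as miR-497, had normalized counts of 128, 61.6, 46.5, 57.3 and 49.2 in CT1 to CT5. In FT1 to FT5 it had 78.2, 21.3, 197, 21.9 and 150. FT2 and FT4, the samples with the lowest miR-15b, were again the lowest and lay under background. On the log2 scale FT against CT gave 0.45 (95% interval -0.72 to 1.63, edgeR adjusted p = 0.773). The groups of none of the 4 members were free of overlap, a pattern found in 0.53% of all miRNAs.

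M against CT asked how tumors of induced mice differ from normal tube. Here 14.5% of the 566 miRNAs were called (82, of which 58 were higher and 24 lower in M), and 0 of the 4 members. The split moved with the scaling, to 83 higher and 68 lower with TMM, 92 and 71 with median of ratios, 70 and 10 with miR-425, 42 and 71 with total counts and 24 and 113 with the positive controls. At an unadjusted 0.05, 160 miRNAs passed. miR-15a and miR-16 came nearest to the threshold, and both were higher in M on average.

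miR-15a had normalized counts of 460, 1185, 2888, 408 and 1780 in M1 to M4 and M6. M2, M3 and M6 exceeded every CT sample, whereas M1 and M4 lay within the CT range. The M mean was 1344 ± 1031 (SD, n = 5), and the CT mean was 479 ± 85.7 (SD, n = 5). This was a log2 fold change of 1.49 ± 0.551 (SE), with a 95% interval for this miRNA alone of 0.33 to 2.65. The edgeR adjusted p was 0.0824. It was 0.0257 with DESeq2, 0.0407 when miRNAs under a mean count of 50 were left out, 0.0390 without M1 and 0.0250 without M4, so the call depended on the tool, on how many miRNAs were tested and on single samples. Among all miRNAs, 123 of 566 were called with DESeq2 and 69 of 133 with that minimum count. Without M1 76 of 566 were called, and without M4 77 of 566. The fold change was above 0 under every scaling tried, from 0.94 upward over all alternatives.

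miR-16 had normalized counts of 6156, 10730, 11498, 1875 and 7620 in M1 to M4 and M6. All but M4 exceeded every CT sample, and M4 lay below all of them. The M mean was 7576 ± 3868 (SD, n = 5), and the CT mean was 3421 ± 786 (SD, n = 5). This was a log2 fold change of 1.15 ± 0.492 (SE), with a 95% interval for this miRNA alone of 0.11 to 2.18. The edgeR adjusted p was 0.138. It was 0.0494 with DESeq2, 0.0485 with the minimum mean count of 50 and 0.0265 without M4, and the fold change was at least 0.74 under every alternative. The calls among all miRNAs in these settings are those given for miR-15a.

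Blood cell miRNAs were higher in M in sum, but single ones differed in which M samples were high. The summed normalized counts of the erythrocyte miRNAs miR-451, miR-144 and miR-486 were 113 to 675 in CT and 358 to 2860 in M. miR-451 made up most of this sum in M2, M3 and M6, the M samples highest in miR-15a, at 879, 2507 and 1286 normalized counts against 230 in M1 and 184 in M4. In that list 1 of 3 passed the test in M against CT, miR-486 with a log2 fold change of 3.27 (edgeR adjusted p = 0.000254). miR-486 had another order, with 409 normalized counts in M1, 289 in M3, 143 in M4, 112 in M2 and 81.9 in M6. miR-144 was above background in 0 of 5 CT and 3 of 5 M samples. The 5 leukocyte miRNAs summed to 593 to 1164 in CT and 967 to 6301 in M, with M3 the highest and M1 (2654) above M6 (1870). Of these 5, miR-223 passed the test (log2 fold change 3.59, edgeR adjusted p = 0.00205), with 1342 to 3739 normalized counts in M2, M3 and M6 against 615 in M1 and 128 in M4. miR-142-5p ran the other way, with 693 in M1 and 626 in M4 against 75.1 to 229 in M2, M3 and M6, and miR-155 was at 1 count in every CT and M sample. The part of blood cells in the levels of miR-15a and miR-16 was not tested. In pieces of whole tissue, fewer cells of a type and less RNA per cell cannot be told apart.

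miR-15b had normalized counts of 50.8, 834, 780, 50.8 and 1312 in M1 to M4 and M6. M2 and M6 lay above every CT sample and M1 and M4 below every CT sample. M3 (780) was level with CT1 (779), the highest CT sample. With TMM scaling M3 (283 counts, scaling factor 0.452) lay below CT1 (713 counts, scaling factor 0.917). M1 (19 counts) and M4 (21 counts) were under their backgrounds of 44.7 and 44.1. In edgeR the log2 fold change was 0.08 (95% interval -1.45 to 1.61, edgeR adjusted p = 0.941), and it was -0.87 with limma, which averages on the log scale.

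miR-195 had normalized counts of 48.2, 88.5, 68.9, 16.9 and 53.9 in M1 to M4 and M6, inside the CT range except for M4. Its log2 fold change was -0.30 (95% interval -1.23 to 0.64, edgeR adjusted p = 0.659). No member had M and CT groups free of overlap, against 12.5% of all miRNAs.

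M against FT gave 9 called miRNAs of 566 (1.59%) and 0 of the 4 members. At an unadjusted 0.05, 47 miRNAs passed. The log2 fold changes were 1.20 for miR-15a, 0.24 for miR-15b, 0.78 for miR-16 and -0.76 for miR-195, with edgeR adjusted p-values of 0.928, 0.993, 0.993 and 0.993. M2, M3 and M6 lay above every FT sample for both miR-15a and miR-16. The groups overlapped for each member, and 1.41% of all miRNAs had groups that did not.

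**Figure D2:**
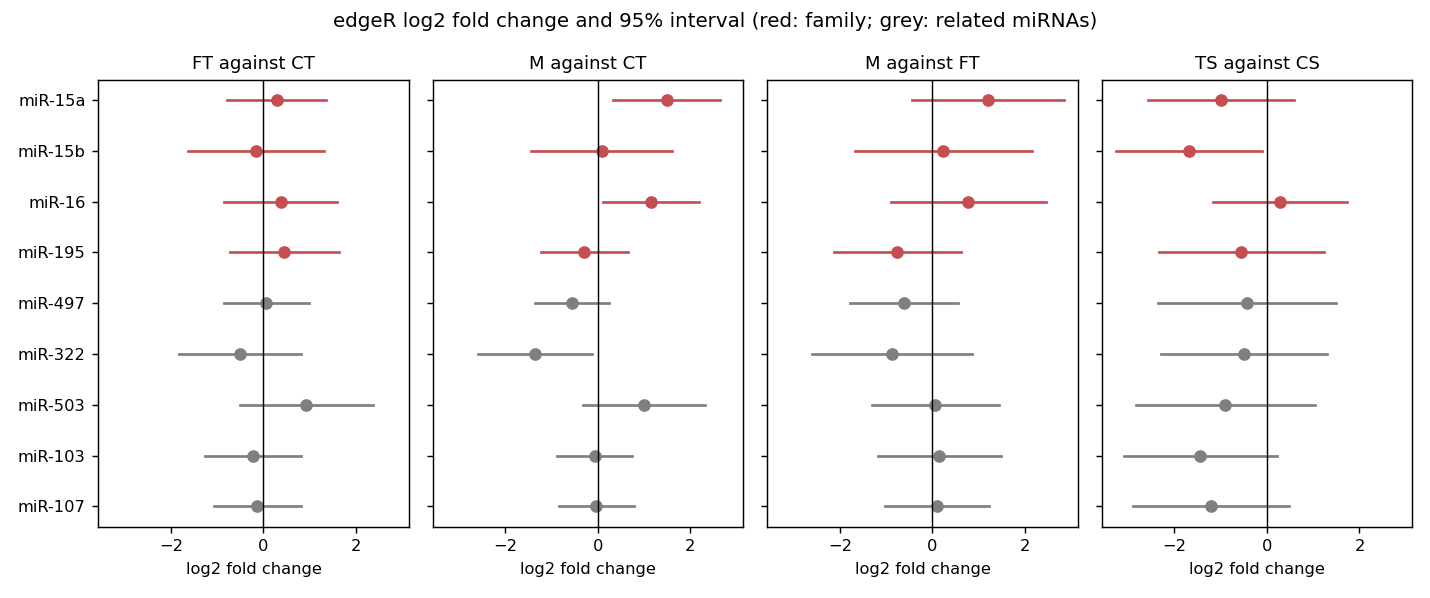
Log2 fold change (points) with its 95% interval for that miRNA alone (lines) in 4 comparisons, from edgeR, for the 4 family members in red and 5 related miRNAs in grey. In M against CT the intervals of miR-15a and miR-16 lie above 0 and that of miR-322 below 0, and in TS against CS that of miR-15b lies below 0, but no miRNA shown passed the test after adjustment over 566 miRNAs.

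The miRNAs most like each member in pattern were named by their correlation with it over the same samples, so that their levels follow the member by choice. Over the 15 tissue samples, among 141 probes with a mean count of at least 50, the log2 normalized counts of miR-15b had their highest Pearson r with miR-23a (0.892), miR-30c (0.850) and miR-199a-3p (0.835). miR-23a had normalized counts of 460 in FT2, 652 in FT4, 1059 in M1 and 529 in M4, and 970 or more in the other tissue samples. The geometric means used for scaling were 174 to 234 counts in FT2, FT4, M1 and M4. They were 169 to 215 in CT5, FT3 and M3, in which miR-15b had 341 to 780 normalized counts. Total counts on miRNAs were 103222 to 215577 in the former 4 samples and 70164 to 74888 in the latter 3, and the part of depth in the low values was not tested.

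The other members had other neighbours. miR-15a was most like miR-16 (r = 0.818), then miR-223 (0.775) and miR-451 (0.774). miR-16 was most like miR-152 (0.837), miR-15a (0.818) and miR-335-5p (0.734). miR-195 was most like miR-322 (0.841), a miRNA of the same seed, then miR-130a (0.811) and miR-199a-5p (0.753). miR-15b had an r of 0.543 to miR-16, its neighbour in Smc4, 0.520 to miR-15a and 0.705 to miR-195, while miR-15a and miR-195 had 0.236. These values describe 15 samples that share a scaling factor in each sample and fall into 3 groups. With TMM scaling, miR-425 (0.943) came before miR-23a for miR-15b, miR-16 and miR-152 stayed first for miR-15a and miR-16, and miR-322 stayed first for miR-195. For miR-15a, miR-223 and miR-451 then gave way to the probe for miR-106a and miR-17 (0.830) and to miR-301a (0.800). miR-199a-3p for miR-15b, miR-335-5p for miR-16 and miR-199a-5p for miR-195 also left the first 3.

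Ratios between members in 1 sample do not depend on the scaling. The log2 ratio of miR-16 to miR-15a was 2.82 ± 0.456 (SD, n = 5) in CT, 2.82 ± 0.434 (n = 5) in FT and 2.64 ± 0.776 (n = 5) in M. The difference was -0.01 in FT (exact permutation test, two-sided, p = 0.976) and -0.18 in M (exact permutation test, p = 0.611). Both differences were smaller than the SD within a group, and single samples lay between 1.99 in M3 and 3.74 in M1.

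The log2 ratio of miR-15b to miR-15a had a lower mean in M, without passing the adjusted test. It was 0.86, 0.53, -1.32, 0.55 and 0.28 in CT1 to CT5 and -3.18, -0.51, -1.89, -3.01 and -0.44 in M1 to M4 and M6. CT3 lay within the M range and the other CT samples above it. The means were 0.18 ± 0.865 (SD, n = 5) and -1.80 ± 1.31 (SD, n = 5), a difference of -1.98 (exact permutation test, two-sided, p = 0.0317, adjusted p = 0.254 over 24 tests). In FT1 to FT5 the ratio was 0.57, -3.12, -1.01, -3.18 and 0.84 (difference from CT -1.36, exact permutation p = 0.262, adjusted p = 0.571). The values of FT2, M1 and M4 rest on miR-15b counts under background. Raised to the background of the sample, they were -1.76, -1.94 and -1.94, and FT4 stayed at -3.18.

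The log2 ratio of miR-195 to miR-16 was lower in all M than in all CT samples, but not once low counts were raised to background. It was -5.19, -5.87, -6.15, -5.53 and -5.87 in CT1 to CT5 and -7.00, -6.92, -7.38, -6.79 and -7.14 in M1 to M4 and M6. The groups did not overlap, with means of -5.72 ± 0.372 (SD, n = 5) and -7.05 ± 0.226 (SD, n = 5). Among single miRNAs, 71 of 566 (12.5%) also had M and CT groups without overlap. The share among ratios of other miRNAs was not computed. The difference of -1.32 had an exact two-sided permutation p of 0.00794, the smallest that 252 splits allow, and an adjusted p of 0.190 over the 24 tests. miR-195 was not above background in CT5, M1 and M4. With each count raised to the background of its sample where it was lower, a setting chosen after seeing the data, the groups overlapped and the difference was -0.74 (exact permutation p = 0.294). With the negative controls subtracted it was -1.72 (exact permutation p = 0.0635). FT spanned both groups, from -7.89 in FT4 to -4.53 in FT3.

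miRNAs of other cell types also moved between these groups. Those of smooth muscle and stroma, 5 probes with miR-143 and miR-145 among them, summed to 4713 to 13280 normalized counts in CT and 626 to 3821 in M, and 3 of 5 were called lower. The 2 endothelial probes, both strands of miR-126, summed to 4224 to 6683 in CT and 7887 to 19897 in M, where miR-126-3p was called higher and miR-126-5p had a log2 fold change of -0.83 (edgeR adjusted p = 0.274). The 3 mesenchymal probes summed to 1907 to 3526 in CT and 404 to 13654 in M, with 0 called. Most of this sum was miR-199a-3p, with a log2 fold change of 1.14 in M against CT. The others had -0.51 (miR-199a-5p) and -0.21 (miR-214). The part of these cell types in the ratios was not tested.

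Of the 6 ratios in 4 comparisons, none passed 0.05 after adjustment. Before adjustment 3 did, all in M against CT: the 2 above and miR-195 to miR-15a (difference -1.51, exact permutation p = 0.0317, adjusted p = 0.254). The last was -0.92 (exact permutation p = 0.286) with the background as lowest count and -1.90 (exact permutation p = 0.0873) with the negative controls subtracted.

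**Figure D3:**
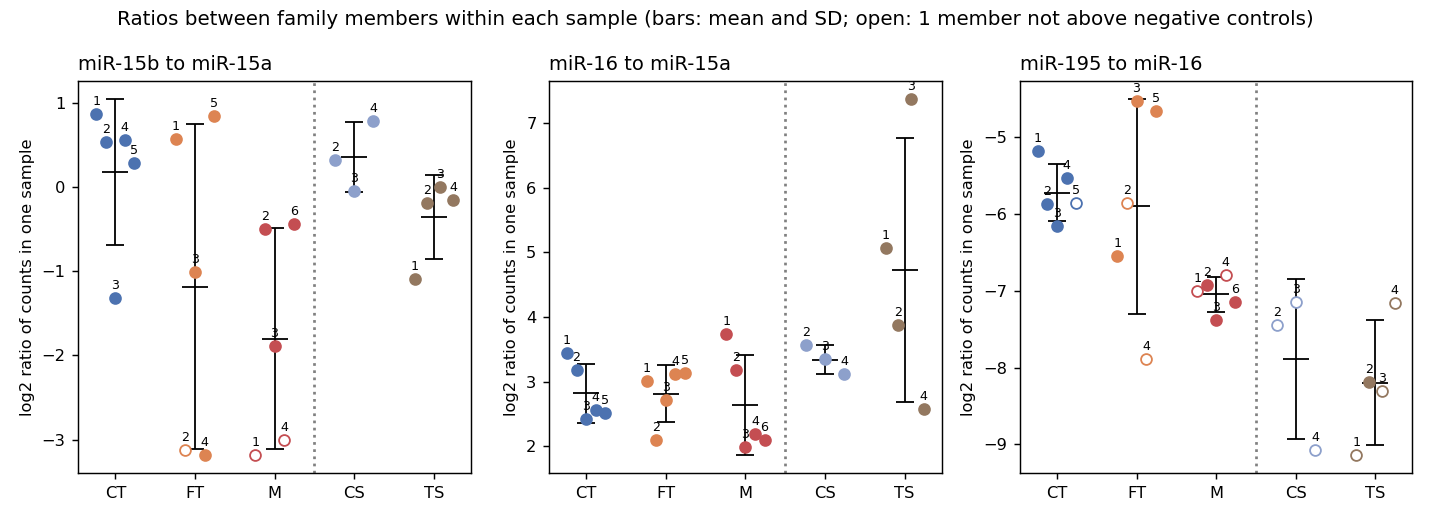
Log2 ratio of the counts of 2 members in the same sample, by group, with mean and SD as black bars; numbers are sample numbers and open symbols have 1 member not above the negative controls. The ratio of miR-16 to miR-15a kept means of 2.64 to 2.82 in the tissue groups, that of miR-195 to miR-16 was -6.79 or lower in M and -6.15 or higher in CT, and TS3 reached 7.38 for miR-16 to miR-15a.

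In plasma, TS against CS asked which circulating miRNAs differ in induced mice. None of the 566 miRNAs was called (0%; edgeR), 42 passed an unadjusted 0.05, and DESeq2, limma and the methods' t-test also called 0. The median log2 fold change over all 566 was -0.89, against -0.05 with TMM scaling, so plasma values are read against that shift.

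miR-15b was the member that separated the groups in normalized counts, but not with TMM scaling. It had normalized counts of 1061, 791 and 842 in CS2 to CS4 and of 183, 568, 71.4 and 296 in TS1 to TS4. All 4 TS samples lay below all 3 CS samples, which was also so for 26 of the 566 miRNAs (4.59%; 5.3% in either direction). The means were 898 ± 143 (SD, n = 3) and 280 ± 213 (SD, n = 4). The log2 fold change was -1.68 ± 0.807 (SE), with a 95% interval for this miRNA alone of -3.26 to -0.10 and an edgeR adjusted p of 0.542. With median-of-ratios scaling, in which the median of all miRNAs was 0.03, it was -0.79.

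miR-15a had normalized counts of 848, 820 and 492 in CS2 to CS4 and 393, 649, 71.4 and 330 in TS1 to TS4. TS2 lay inside the CS range and the others below it. Its log2 fold change was -0.99 (95% interval -2.57 to 0.58, edgeR adjusted p = 0.570). In TS3 both miR-15a and miR-15b had 38 counts against a background of 36.0.

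miR-16 was not lower. It had normalized counts of 10009.5, 8349 and 4261 in CS2 to CS4 and 13205, 9530, 11850 and 1966 in TS1 to TS4. TS4 was the lowest of the 7 samples and TS1 and TS3 the highest. The log2 fold change was 0.28 (95% interval -1.17 to 1.72, edgeR adjusted p = 0.832). In TS3, where miR-15a was close to background, miR-16 held rank 2 of 566, and the log2 ratio of miR-16 to miR-15a was 7.38 against 2.57 to 5.07 in the other TS samples and 3.12 to 3.56 in CS. The difference in this ratio was 1.38 (exact permutation p = 0.400, where 35 splits allow no p below 0.0571).

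miR-195 was above background only in TS2 of the 7 plasma samples. Its log2 fold change of -0.55 (edgeR adjusted p = 0.742) compares counts near background.

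The mice that gave both tube and plasma can be set side by side, with no test. For miR-15b, FT2 and FT4, at 33.2 and 65.6 in tube, had 183 (TS1) and 71.4 (TS3) in plasma. FT3 and FT5, at 341 and 773 in tube, had 568 (TS2) and 296 (TS4). The control mice, at 573, 247 and 661 in CT2 to CT4, had 1061, 791 and 842 in CS2 to CS4. miR-16 and miR-15a had other orders: FT2, the lowest of the 4 tubes for miR-16 (1241), had the highest plasma value (13205), and FT4, at 596 for miR-15a in tube, had the lowest plasma value (71.4).

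The erythrocyte miRNAs did not move together in plasma. miR-144 had normalized counts of 3614, 2379 and 1212 in CS2 to CS4 and of 508, 908, 52.6 and 524 in TS1 to TS4 (log2 fold change -2.27, edgeR adjusted p = 0.542). It was lower in all TS samples by this scaling, as were 4.59% of all miRNAs. miR-451 and miR-486 had log2 fold changes of -0.16 (adjusted p = 0.901) and 0.26 (adjusted p = 0.851). Of the 3, 0 passed the test, and their sum was 12821 to 34979 in CS and 5756 to 51820 in TS. Over the 7 plasma samples and 95 probes, miR-144 was the probe most like both miR-15a (r = 0.972) and miR-15b (r = 0.954), and the r of miR-15a to miR-15b was 0.916. miR-16 was most like miR-19a (0.981), miR-25 (0.946) and the probe for miR-106a and miR-17 (0.933), with an r of -0.07 to miR-15a and -0.20 to miR-15b. The part of red cell RNA in these plasma levels was not tested.

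**Figure D4:**
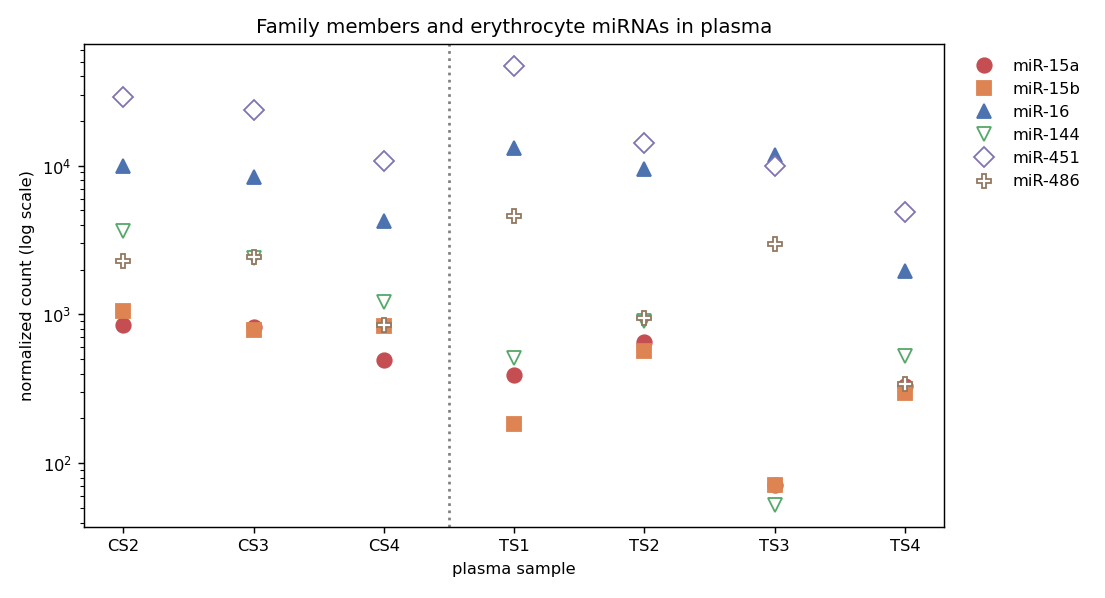
Normalized counts (log scale) of miR-15a, miR-15b and miR-16 (filled) and of the erythrocyte miRNAs miR-144, miR-451 and miR-486 (open) in the 3 CS and 4 TS plasma samples. In TS3, miR-15a, miR-15b and miR-144 lie at 52.6 to 71.4 while miR-16 lies at 11850.

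The change in plasma was set against the change in tube by testing TS against CS minus FT against CT. The interaction was -1.28 for miR-15a, -1.52 for miR-15b, -0.09 for miR-16 and -0.98 for miR-195 on the log2 scale, beside a median of -0.99 over all 566 miRNAs. None was called among members or among all miRNAs (0%; edgeR adjusted p = 0.548, 0.548, 0.963 and 0.611), and 57 of the 566 passed an unadjusted 0.05. The fit does not take into account that plasma and tube came in part from the same mice.

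Related miRNAs with the same or a shifted seed gave no call either, with 0 of 5 in each comparison. They are shown to place the family among its relatives, with bases 2 to 8 in capitals.
miR-497: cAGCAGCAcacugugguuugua
miR-322: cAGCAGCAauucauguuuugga
miR-503: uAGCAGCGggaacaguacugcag
miR-103: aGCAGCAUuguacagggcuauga
miR-107: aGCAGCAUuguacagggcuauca

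miR-322, which is made with miR-503 from the X chromosome, had the family seed and the lowest fold change of the 5 in M against CT. Its normalized counts were 567 to 893 in CT and 131, 484, 325, 26.6 and 318 in M1 to M4 and M6, so all M samples lay below all CT samples. This was also so for 29 of the 566 miRNAs, and 12.5% lacked overlap in either direction. With TMM scaling miR-322 overlapped, as CT5 (242 counts, scaling factor 0.753) lay below M2 (520 counts, scaling factor 0.882). The log2 fold change was -1.36 (95% interval -2.60 to -0.13, edgeR adjusted p = 0.138). miR-497, the neighbour of miR-195, had -0.56 (edgeR adjusted p = 0.326) with at most 37.5 normalized counts in M and 39.8 in CT. It was above background in only 2 of 5 CT and 1 of 5 M samples. miR-503 was not above background in any of the 22 samples. miR-103 and miR-107, which differ by 1 base and lie in Pank genes, had -0.07 and -0.03 in M against CT. Only 1 of 5 CT and 1 of 5 M samples had miR-107 above background. In plasma, miR-103 had 81.3 to 155 normalized counts in CS and 34.2 to 52.6 in TS (log2 fold change -1.44, edgeR adjusted p = 0.570). All TS samples lay below all CS samples, as for 4.59% of all miRNAs. With TMM scaling the groups overlapped, as CS3 (21 counts, scaling factor 0.555) lay below TS4 (67 counts, scaling factor 1.05). miR-103 was above background in only 1 of 3 CS and 2 of 4 TS samples.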

How the data were processed

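The authors deposited barcode counts of the NanoString nCounter mouse miRNA assay v1.5, made from 100 ng of tissue RNA or 10 ng of plasma RNA, for 626 probes. Their scaling in nSolver 3.0 is not in these counts. Whether control probes were used to correct them before deposit is not stated. Every column was matched to a sample (0 unmatched), by its label. The 566 mouse miRNA probes were tested with edgeR 4.0.16 in R 4.3.3 (glmQLFit, glmQLFTest, only the groups compared, Benjamini-Hochberg, threshold 0.05), with the geometric mean of the 100 (tissue) or 30 (plasma) miRNAs of highest mean count as library size. miR-15a, miR-15b and miR-16 are themselves 3 of the 100 and 3 of the 30. Ratios were tested with exact permutation tests in scipy 1.17.1. The fit was tested on simulated data. DESeq2 1.42.0, limma 3.58.1 and the methods' t-test on log2 normalized values were alternatives, with other scalings, filters and each sample left out. The t-test did not assume equal variances, and its p-values were adjusted like the others.

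The p-values measure the spread between these samples, part of which may be technical. The members, the related and marker lists and the rule for named miRNAs (members, related list, the 3 probes most like each member, markers that move with a result) were chosen with earlier results of these data known. M5 and CS1 were not analysed here, and further alleles of these mice are not reported here.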

Additional observations from a re-analysis of the deposited data

Results flagged for a closer look

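Among 40 sets of 4 or 5 values in a group (log2 normalized counts of the members and log2 ratios between them), 4 had a lowest or highest sample whose gap to the next, as a share of the whole range, was past Dixon's 95% limit. Chance alone gives about 1 in 20 such groups. CT3 was low for miR-15b among the CT samples (gap 0.733 of the range) and for the ratio of miR-15b to miR-15a (0.735). CT1 was high for miR-195 among the CT samples (0.722). TS3 was high for the ratio of miR-195 to miR-15a among the TS samples (0.859), with both members near background there.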

How the results depend on the processing

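No member was called in FT against CT, M against FT, TS against CS or the interaction under any alternative. miR-15a and miR-16 in M against CT were called with DESeq2 (1.49 and 1.15 on the log2 scale) and with a minimum mean count of 50 (1.49 and 1.15), where fewer miRNAs were tested. Among all miRNAs, DESeq2 called 123 of 566 there, and the minimum mean count gave 69 of 133. Leaving out 1 sample at a time gave 1.002 to 1.72 for miR-15a and 0.95 to 1.40 for miR-16, with calls for miR-15a without M1 or M4 and for miR-16 without M4. Of 466 alternative values for the members, 423 kept direction and call, 36 changed sign and 7 gained a call. Of 318 for the ratios, 302 kept both and 16 changed sign.

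The cause of the changes of sign was not tested. miR-15b in FT against CT was 0.37 with TMM, 0.51 with median-of-ratios and 0.86 with positive control scaling. With total count scaling, miR-15a in FT against CT was -0.089, miR-16 there -0.022, miR-15b in M against CT -0.28 and miR-16 in TS against CS -0.23. miR-15b in M against CT was -0.87 with limma and -0.87 with the methods' t-test. In M against FT, miR-15b was -0.40 with TMM, -0.25 with median-of-ratios and -0.75 with positive control scaling, and miR-16 was -0.078 with the last. In TS against CS, miR-15a was 0.061 with median-of-ratios scaling. miR-195 there was 0.50 with TMM, 0.58 with median-of-ratios, 0.51 with positive control scaling and 2.20 with the negative controls subtracted. In the interaction, miR-16 was 0.30 with TMM and miR-195 1.53 with the negative controls subtracted. In FT against CT, the ratio of miR-195 to miR-15a was 0.0041 with a pseudocount of 10 and 0.31 with the background as lowest count, and that of miR-195 to miR-16 was 0.019 and 0.32. In TS against CS, the latter was 2.16 with the negative controls subtracted.

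Leaving out 1 sample at a time turned the sign of these as well. miR-15b ranged from -0.91 to 0.14 in FT against CT, -0.42 to 0.38 in M against CT and -0.26 to 0.99 in M against FT. miR-195 ranged from -0.54 to 0.052 in M against CT. miR-16 ranged from -0.0067 to 0.61 in TS against CS and -0.38 to 0.24 in the interaction. Ratio differences ranged from -0.11 to 0.17 (miR-16 to miR-15a), -0.57 to 0.24 (miR-195 to miR-15a) and -0.52 to 0.32 (miR-195 to miR-16) in FT against CT, -0.15 to 0.98 (miR-195 to miR-15b) in M against CT, -0.17 to 1.02 (miR-16 to miR-15b) in M against FT and -0.90 to 0.069 (miR-195 to miR-16) in TS against CS.

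Sample numbers did not pair the samples: the deviations of same-numbered samples had r from -0.375 to 0.322, and 4 of 16 samples correlated best with the sample of their own number. With the replicate block, miR-15b in M against CT was -1.34 and miR-16 in TS against CS -0.22. Called miRNAs numbered 0, 69, 1 and 96 in FT against CT, M against CT, M against FT and TS against CS, none of them a member.

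Calls among all 566 miRNAs, samples left out included, ranged from 0 to 12 in FT against CT, 32 to 163 in M against CT and 0 to 33 in M against FT. The median log2 fold change of all miRNAs in M against CT ran from -0.47 with positive control scaling to 0.66 with miR-425 scaling. Scaling without the members themselves, chosen after seeing the data, changed no call and no sign of a member. Counts near the negative controls limit miR-195 in all groups and miR-15b in FT2, M1 and M4.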
